A study of Drosophila melanogaster with 8 samples.

Results

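The UDP-glycosyltransferase (UGT) family was represented on a 2-colour *Drosophila* cDNA array by 7 clones of 7 genes, out of 8448 clones in all. Members were all clones whose gene symbol, on the platform or under its current name, begins with Ugt and a number. They are *Ugt35A1* (CG6644), *Ugt35D1* (CG31002), *Ugt36F1* (CG17324), *Ugt37A1* (CG11012), *Ugt37E1* (CG13271), *Ugt50B3* (CG30438) and *Ugt301D1* (CG10178). The RefSeq gene table lists 35 such genes in the fly, so 20.0% of the family could be examined under a symbol. No clone with several symbols held a Ugt gene, and all 7 symbols were current.

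UGT enzymes sit in the membrane of the endoplasmic reticulum and join a sugar, in insects mostly glucose, from a UDP-sugar to small fat-soluble molecules. The sugar makes the molecule soluble enough to be excreted. In insects the family is known for clearing plant toxins and insecticides, and for handling pigments, hormones and odorants. In the nomenclature the number gives the family, the letter the subfamily and the last number the gene, so *Ugt35A1* and *Ugt35D1* belong to 1 family and *Ugt37A1* and *Ugt37E1* to another.

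All flies were treated alike, because the series asked how much the platform itself varies. Each of 8 pools held about 240 adult females of the wild-type strain Oregon-R, aged 4 to 10 days and reared under a cycle of 16 h of light to 8 h of darkness (relative humidity 60%). They had received 2 mL of 99% ethanol on the body surface from a Potter's tower, a spray device, and were sampled 6 h later. Pools 1 and 2, 3 and 4, 5 and 6, and 7 and 8 formed pairs 1 to 4. Each pair was hybridized to 1 normal-label array (odd pool in Cy3, even pool in Cy5) and 1 reversed-label array (dyes exchanged), 4 arrays in each label group. No untreated flies were compared, so nothing here measures an ethanol response. A pool mixes all tissues of many flies, and fewer cells of a type cannot be told apart from less RNA per cell. Ratios hold no expression level, so tissue markers could not be checked for presence.

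Values are log2 ratios of the channels, 1 unit being 2-fold. Signs are as deposited, and which channel is the numerator is not known, so no direction is assigned to a dye or pool. If each value is 1 pool over the other, a dye effect changes sign between the arrays of a pair and a pool difference keeps it. That reading rests on the correlations of each normal-label array with the reversed-label arrays of the other pairs, 12 in all, with a median of -0.157 and 9 below 0. They ran from -0.412 to 0.128. The reading was thus taken from these same arrays, by a pattern that the dye test also looks for. More dye calls than even-odd calls are therefore no separate result. The difference, normal minus reversed label, divided by 2 is then called the dye component, and the sum divided by 2 the even-odd component, which compares odd-numbered with even-numbered pools. With 8 arrays, precision is limited by their number. Pair 3 stood apart in 2 ways: its normal-label array had the widest spread (median absolute value 0.329 over all clones, against 0.140 to 0.222 on the other 7 arrays), and its reversed-label array correlated at only -0.142 to 0.032 with the other reversed-label arrays.

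UGT ratios between identically treated pools were mostly small. Over 56 clone-by-array values the median absolute log2 ratio was 0.217, against 0.199 for all clones. The range was -1.02 to 1.01, and 2 values (3.57%) lay past 2-fold, against 2.02% of the values of all clones. These were 1 value each of *Ugt35D1* and *Ugt35A1*, both on the normal-label array of pair 3. At least 1 array of 8 put 2 of the 7 UGT clones past 2-fold, and 12.8% of all clones. Once the dye swap was averaged out, no UGT clone was past 2-fold in any pair, against 3.12% of all clones.

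*Ugt35D1* was the member with the largest dye component. In pairs 1 to 4, its log2 ratios under normal label were -0.67, -0.73, -1.02 and -0.43, and under reversed label they were -0.13, -0.11, 0.01 and 0.39. All 4 normal-label values lay below all 4 reversed-label values. The normal-label values ranked between the 1.85th and 6.16th percentile of the clones on their arrays, and the reversed-label values between the 27.3rd and 90.1st. Means were -0.71 ± 0.24 on normal-label arrays and 0.04 ± 0.24 on reversed-label arrays (SD, n = 4 each). By these means the clone stood off centre under normal label and close to 0 under reversed label, not at mirror-image values. Pair 4 was an exception, with values of nearly equal size and opposite sign (-0.43 and 0.39).

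**Figure D1:**
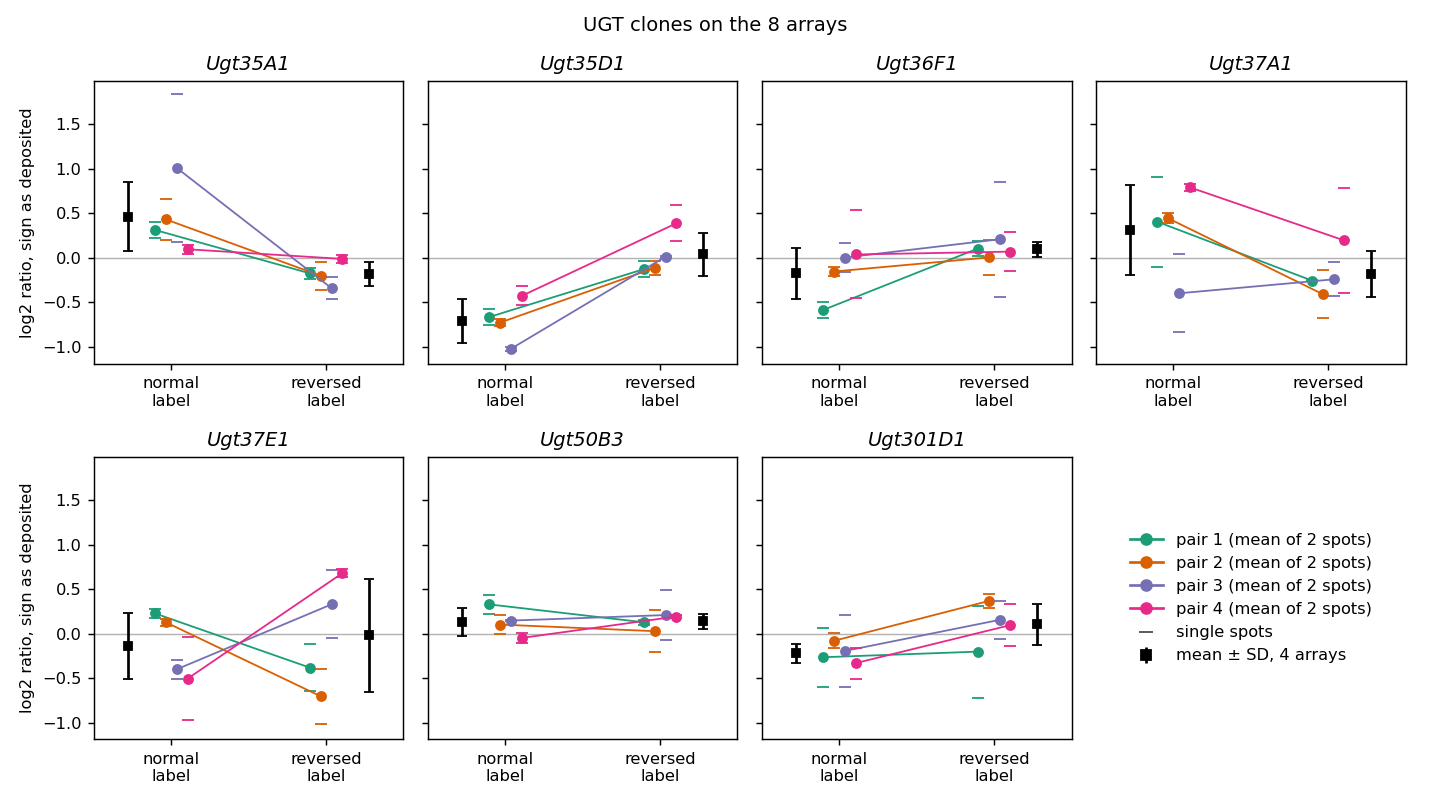
Log2 ratio (y axis, sign as deposited) of each UGT clone on the normal-label and reversed-label array of the 4 pairs. Circles are means of 2 spots, dashes single spots, lines join the arrays of a pair, and black squares are means ± SD over 4 arrays. All *Ugt35D1* values lie at or below -0.43 under normal label and at or above -0.13 under reversed label, and those of *Ugt35A1* lie above 0 under normal label and below 0 under reversed label.

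The dye component of *Ugt35D1* was -0.38 ± 0.11 (mean log2 ± SD, n = 4 pairs; 95% interval -0.54 to -0.21; limma adjusted p = 0.0261), below 0 in 4 of 4 pairs. It was the 1 of 7 UGT clones that passed, where 8.56% of all clones passed and 4.31% passed below 0. A single call among 7 clones is close to that background share, and nothing about the family is read from it. Leaving out any 1 pair ended the call, at limma adjusted p = 0.0988, 0.0915, 0.0721 and 0.0665 without pairs 1 to 4, with means of -0.41, -0.40, -0.33 and -0.36. The share of all clones called without a pair is not given, so that loss is not read as particular to *Ugt35D1*. Its even-odd component was -0.34 ± 0.22 (mean log2 ± SD, n = 4 pairs), of nearly the same size. It was below 0 in 4 of 4 pairs, as -0.40, -0.42, -0.51 and -0.02, and did not pass (limma adjusted p = 0.821, unadjusted p = 0.0128). The duplicate spots of this clone had the same sign on 8 of 8 arrays and differed by 0.161 on average, less than in any other member.

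*Ugt35A1*, of the same family as *Ugt35D1*, leaned the other way. Its log2 ratios were 0.31, 0.43, 1.01 and 0.10 on the normal-label arrays of pairs 1 to 4, and -0.17, -0.20, -0.34 and -0.01 on the reversed-label arrays. Every normal-label value was above 0 and every reversed-label value below 0, so the groups did not overlap. Such opposite signs on all arrays were found in 1 of 7 UGT clones, against 4.70% of all clones. Non-overlap in either form was found in 2 of 7, *Ugt35D1* and *Ugt35A1*, against 12.8% of all clones. The dye component was 0.32 ± 0.26 (mean log2 ± SD, n = 4 pairs; 95% interval 0.08 to 0.56) and did not pass (limma adjusted p = 0.0977). With the pair as a block over 8 arrays, fitted at a within-pair correlation of -0.269, it passed (limma adjusted p = 0.0482). A negative correlation lowers the standard error below that of independent arrays, with which it did not pass (limma adjusted p = 0.119). The share of all clones called with the block is not given, so that pass is not read as a result. The value of 1.01 in pair 3 was the mean of spots at 0.18 and 1.84, the widest gap between duplicate spots in the family, and without pair 3 the dye component was 0.20 (limma adjusted p = 0.213).

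The 2 clones of the Ugt37 family did not behave alike. *Ugt37A1* stood at 0.41, 0.45, -0.40 and 0.79 on the normal-label arrays of pairs 1 to 4, and at -0.26, -0.41, -0.24 and 0.19 on the reversed-label arrays. Its label groups overlapped because of pair 3, the only pair below 0 under both labels. The dye component was 0.24 ± 0.22 (mean log2 ± SD, n = 4 pairs) and did not pass (limma adjusted p = 0.152). Without pair 3 it was 0.35 (limma adjusted p = 0.067). In pair 4 it had the largest pool difference above 0 in the family, 0.49 with an SE of 0.19 (limma adjusted p = 0.865), where the spots of the reversed-label array lay 1.18 apart.

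*Ugt37E1* varied most among the members over the 8 arrays, with an SD of 0.485. Its ratios were 0.23, 0.13, -0.40 and -0.51 on the normal-label arrays, and -0.38, -0.71, 0.33 and 0.68 on the reversed-label arrays. Pairs 1 and 2 were thus above 0 under normal label and below 0 under reversed label, and pairs 3 and 4 the opposite way. These cancelled in the mean dye component, -0.06 ± 0.50 (mean log2 ± SD, n = 4 pairs), whose 95% interval of -0.46 to 0.34 was the widest in the family (limma adjusted p = 0.858). A mean near 0 here did not come from small values. The array pattern, which splits the pairs 2 against 2, was not tested.

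*Ugt36F1*, *Ugt301D1* and *Ugt50B3* stayed closest to 0 over the 8 arrays. *Ugt36F1* had 1 value past 0.5 in size, -0.59 on the normal-label array of pair 1, followed by -0.15, 0.003 and 0.04 in pairs 2 to 4, and its reversed-label values were 0.10, 0.004, 0.21 and 0.07. *Ugt301D1* was below 0 on all 4 normal-label arrays (-0.27, -0.08, -0.20 and -0.33) and at -0.20, 0.37, 0.15 and 0.09 on the reversed-label arrays. Their dye components were -0.14 ± 0.14 and -0.16 ± 0.09 (mean log2 ± SD, n = 4 pairs), below 0 in 4 of 4 pairs each, and neither passed (limma adjusted p = 0.303 and 0.182). A like sign in 4 of 4 pairs was found in 4 of 7 UGT clones and in 34.5% of all clones.

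*Ugt50B3* was the steadiest member, from a UGT family that insects of many orders share. It read 0.33, 0.10, 0.15 and -0.05 on the normal-label arrays and 0.13, 0.03, 0.21 and 0.19 on the reversed-label arrays. Its SD over the 8 arrays, 0.115, was lower than that of all but 1.89% of clones. The dye component was -0.003 ± 0.09 and the even-odd component 0.13 ± 0.08 (mean log2 ± SD, n = 4 pairs; limma adjusted p = 0.981 and 0.821). The even-odd values were above 0 in 4 of 4 pairs, and a like sign in 4 of 4 pairs was found in 3 of 7 UGT clones and 14.5% of all clones.

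**Figure D2:**
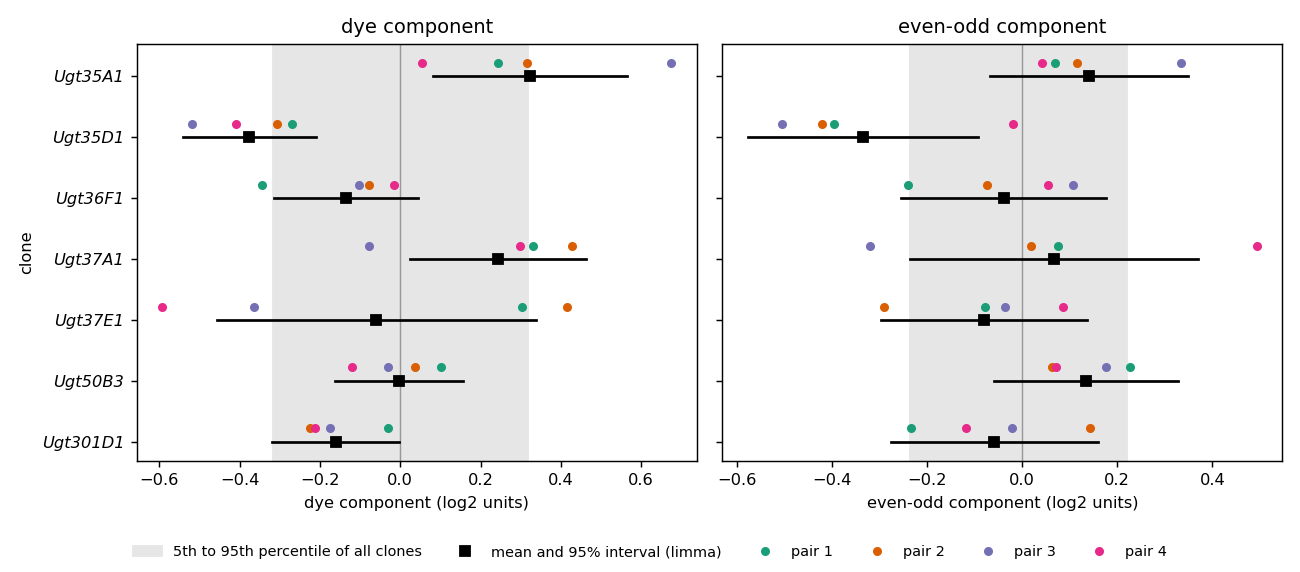
Dye component (left) and even-odd component (right) of each UGT clone in log2 units. Coloured circles are the 4 pairs, squares with lines are means with 95% limma intervals, and the grey band spans the 5th to 95th percentile of all clones (-0.32 to 0.32 for dye, -0.24 to 0.22 for even-odd). *Ugt35D1* lies below the band in both panels and *Ugt35A1*, at 0.32, just above its upper edge in the left panel.

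The median SD over the 8 arrays was 0.438 for the 7 UGT clones, against 0.296 for all clones, and *Ugt35A1*, *Ugt37A1*, *Ugt35D1* and *Ugt37E1* lay at the 80.9th to 86.3rd percentile, the other 3 at or below the 32.4th. The median dye component over the 7 UGT clones was -0.06, against 0.004 over all clones, and the median absolute dye component 0.161, against 0.115. With an unadjusted p under 0.05 in the dye test, it was 4 of 7 (*Ugt35D1*, *Ugt35A1*, *Ugt37A1* and *Ugt301D1*) and 26.5% of all clones. For the even-odd component, the median absolute value was 0.0799 in the family, against 0.0824 over all clones. In the limma test of the even-odd component, 0 of 7 UGT clones passed and 0.00% of all clones did. With an unadjusted p under 0.05, it was 1 of 7 (*Ugt35D1*) and 5.34% of all clones. Even-odd means ran from -0.34 (*Ugt35D1*) to 0.14 (*Ugt35A1*).

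Pools of a pair were compared over the technical spread of the dye swap, in a fit with 4 pair coefficients and a common dye term. No UGT clone passed the F-test (0 of 7, 0.00% of all clones), the smallest limma adjusted p being 0.224 for *Ugt35D1*. With an unadjusted p under 0.05, it was 1 of 7 and 14.9% of all clones. The 28 pair coefficients of the family ran from -0.51 (*Ugt35D1*, pair 3) to 0.49 (*Ugt37A1*, pair 4), with standard errors of 0.13 to 0.34. Their median absolute value was 0.111, against 0.140 for all clones. By pair, 1 to 4, it was 0.227, 0.115, 0.177 and 0.071, against 0.122, 0.123, 0.212 and 0.125 for all clones. It was thus above that of all clones in pair 1 and below it in the other pairs. In pair 3, where 3.20% of all clones passed, 0 of 7 UGT clones did, and *Ugt35D1* came nearest (limma adjusted p = 0.0891). It was the 1 of 7 with an unadjusted p under 0.05 there, against 23.8% of all clones. In pairs 1, 2 and 4, 0.00% of all clones passed, and none of the family. In these pairs 1 UGT clone each had an unadjusted p under 0.05, *Ugt35D1* in pairs 1 and 2 and *Ugt37A1* in pair 4, against 6.50%, 7.40% and 5.36% of all clones.

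Duplicate spots show the error within an array. In 36 of the 56 clone-by-array values (64.3%) both spots of a UGT clone had the same sign, against 68.3% for all clones. The mean absolute difference between spots had a median of 0.413 log2 units over the 7 UGT clones, against 0.249 over all clones. *Ugt37A1* (0.526), *Ugt301D1* (0.509) and *Ugt36F1* (0.488) exceeded 86.6% to 89.5% of clones, while *Ugt35D1* (0.161) and *Ugt50B3* (0.208) exceeded only 24.8% and 39.2%. In 4 of 7 members the mean difference between spots exceeded the SD of the clone over arrays, which was 0.244 for *Ugt36F1*, 0.241 for *Ugt301D1*, 0.454 for *Ugt37A1* and 0.115 for *Ugt50B3*. The share of all clones of which this holds is not given, so it is not read as a trait of the family. The called clone, *Ugt35D1*, had the closest spots in the family. Whether spot brightness differed between these clones could not be examined, because ratios carry no brightness.

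**Figure D3:**
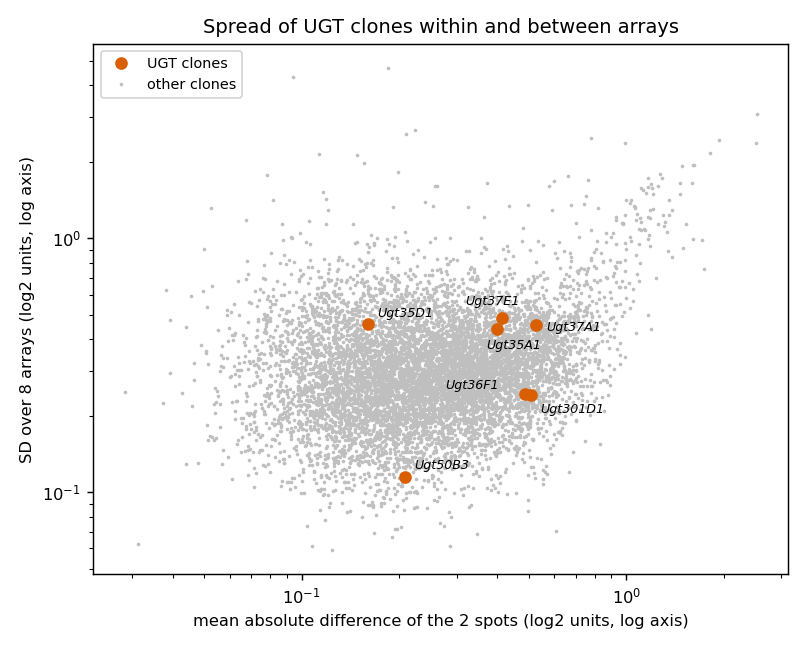
Mean absolute difference between the 2 spots of a clone (x axis, log2 units) against its SD over the 8 arrays (y axis, log2 units), both on log axes, for UGT clones (orange) and all other clones (grey). *Ugt35D1* pairs close spots (0.161) with a wide SD over arrays (0.460), *Ugt50B3* is low on both, and *Ugt301D1* and *Ugt36F1* have wide spots and a narrow SD.

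Several members have close relatives beside them in the genome. In gene order, *Ugt35A1* lies between *Ugt35B1* and *Ugt304A1* in an unbroken run of 6 Ugt genes, *Ugt37E1* lies between *Ugt37C2* and *Ugt37D1* in a run of 3, and *Ugt36F1* opens a run of 3 with *Ugt36D1* and *Ugt36E1*. *Ugt35D1*, *Ugt37A1*, *Ugt50B3* and *Ugt301D1* have no Ugt gene as a direct neighbour. None of these named neighbours had a clone with a symbol. A spotted cDNA can bind transcripts of close relatives, and whether this entered the values was not tested. The called clone, *Ugt35D1*, was not among those in a run, but genes of its family, such as *Ugt35A1* and *Ugt35B1*, lie elsewhere. No sequences were compared, so nothing about such binding is read from position in the genome.

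Across the 8 arrays the members did not move as 1 group. The 21 correlations between UGT clones ran from -0.840 (*Ugt35D1* with *Ugt35A1*) to 0.691 (*Ugt37E1* with *Ugt50B3*), with a median of -0.056, and 9 were above 0. These are descriptions over 8 arrays that share labels and RNA within pairs. Among 2826 other clones with a symbol, the highest correlations with *Ugt35D1* were those of *CG9932* (0.981) and *CYLD* (0.974), a deubiquitinase gene. For *Ugt35A1* they were *CG8520* (0.965) and *CG3788* (0.959). The other members were most alike to *slow* (0.979) and *mRpL16* (0.926) for *Ugt37A1*, *CG2127* (0.943) and *Lsm12a* (0.886) for *Ugt37E1*, and *CG33062* (0.953) and *CG42820* (0.930) for *Ugt36F1*. For *Ugt50B3* they were *CG7264* (0.922) and *CG4239* (0.867), and for *Ugt301D1* *Shrm* (0.916) and *chb* (0.883). Each is the highest of many correlations over the same 8 arrays, so a like label pattern is built into the choice.

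Genes of neighbouring steps in the handling of foreign compounds were followed from a list of 10 clones of 10 genes. The name rule for phase I enzymes, which add or expose a reactive group, took 5 clones, of which 4 were cytochrome P450 genes and 1, *Cyp1*, encodes a cyclophilin and no P450. There were 3 phase II glutathione transferase clones and 1 clone each for UDP-sugar supply and regulators, and none for export pumps. In the dye test 1 of 10 passed above 0 and 0 below 0, against 4.25% and 4.31% of all clones. The 1 was the cytochrome P450 gene *Cyp6u1* (0.37 ± 0.17, mean log2 ± SD, n = 4 pairs, limma adjusted p = 0.0389). The even-odd test and the F-test called 0 of 10. The median dye component was 0.14 for the list (0.099 without *Cyp1*) and 0.24 for the 4 P450 clones, against -0.06 for the UGT clones and 0.004 for all clones.

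Larger mean dye components in that list did not pass. *Cyp1* stood at 0.97 ± 0.87 (limma adjusted p = 0.0785). *mmy*, which makes UDP-N-acetylglucosamine, stood at 0.40 ± 0.33 (limma adjusted p = 0.0841, mean log2 ± SD, n = 4 pairs for both). *Keap1*, the inhibitor of the stress regulator CncC, was near 0 at -0.07 ± 0.14 (limma adjusted p = 0.602), and the glutathione transferase clones *GstE2*, *GstE13* and *GstZ2* lay between -0.10 and 0.005. *Keap1* and these 3 were named after their values were seen.

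Tissue marker lists gave these dye calls. There was no fat body clone, and 0 of 1 gut, 0 of 2 Malpighian tubule and 0 of 3 testis clones passed. Among sense organ clones 3 of 27 passed (1 above 0 and 2 below), and 1 of 4 ovary clones passed, below 0, where 8.56% of all clones passed in either direction, 4.25% above 0 and 4.31% below. Their part in the UGT values was not tested.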

How the data were processed

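Per the labels' protocols, 80 µg of total RNA per dye reaction was labelled by a direct protocol (Cy3 and Cy5). The authors deposited log2 ratios of 16896 spots on 8 arrays, none missing. Base 2 is inferred from their size. For log base, numerator, scanner, background correction and normalization, the step was not given in the sources used here. The largest absolute median of a deposited array was 0.00233.

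Array medians were subtracted and spots 2k-1 and 2k were averaged, giving 8448 clones, of which 2833 had 1 gene symbol. Genes were named from GEO's platform annotation, checked by Entrez identifier against the RefSeq gene table of GCF_000001215.4, which was used for names and neighbours only. Models were fitted with limma 3.58.1 (R 4.3.3) by lmFit and eBayes, adjusted by Benjamini-Hochberg over 8448 clones at 0.05. The code was also run on simulated data with independent noise on each array. That noise had no correlation within pairs, so the run does not measure the error of the tests on these data, and its outcome is not given. Both arrays of a pair carry the same RNA extracts, so each pair counted as 1 replicate for either component. Residuals of the dye fit correlated at -0.269 within pairs. All clones of the family are named. Partner genes are named if called, and otherwise the 3 with the largest dye component are given. The most alike clones are the 2 with the highest correlation. Members and lists were chosen with earlier results of these data known. The alternatives were centring, scaling, normalization, single spots, direction, moderation, threshold, pairing, and leaving out pairs or arrays. Turning 1 array in sign was added after the data were seen.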

Additional observations from a re-analysis of the deposited data

Results flagged for a closer look

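*Ugt35D1* was singled out because its ratios differed between normal-label and reversed-label arrays in the limma test, with a dye component of -0.38 (adjusted p = 0.0261) and the same sign in 4 of 4 pairs. *Ugt35A1* was singled out because every normal-label array lay above 0 and every reversed-label array below 0, with a dye component of 0.32. That difference did not pass (limma adjusted p = 0.0977). In 28 groups of 4 values (each UGT clone under either label and in either component), 0 held a value far from the rest by Dixon's criterion, where chance gives about 1 in 20.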

How the results depend on the processing

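Log ratios without brightness, 4 pairs and 1 clone per gene limit all of these values. The dye component of *Ugt35D1* was below 0 under all 23 alternative values computed and passed in 6. Those 6 were no centring, arrays scaled to one spread (limma adjusted p = 0.0496), quantile normalization (0.044), robust eBayes (0.0245), the replicate block (0.0412) and a turned sign of the pair 3 reversed-label array (0.0392), the last chosen after seeing the data. Changes of moderation, threshold or pairing leave the estimate itself the same, so its sign could not turn there. The value under the other reading is the even-odd component of the main fit. The number of UGT clones called in the dye test was 1, and it was 0 with single spots (*Ugt35D1* at -0.35 and -0.40, limma adjusted p = 0.0743 and 0.0599), at a threshold of 0.01, and with no replicate block (8 arrays as independent, limma adjusted p = 0.146). With the pair as a replicate block, fitted at a negative within-pair correlation (-0.269), it was 2, *Ugt35A1* joining. No other call changed with the replicate block. The share of all clones called under the alternatives is not given, so these counts have no background beside them. Leaving out 1 pair or 1 array gave 0 dye calls each time, with the *Ugt35D1* dye component between -0.45 and -0.28. The fits without 1 array took the arrays as independent, and that model called 0 with all 8 arrays too. They therefore cannot show whether any 1 array carried the call. If every ratio has the same dye as numerator (the other reading), the components change places, so the dye test called 0 and the even-odd test 1 (*Ugt35D1*). The F-test and pair coefficients had 0 UGT calls under each alternative run, and the mean spot difference (0.386) kept between 0.333 and 0.423.

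Signs turned only for values that did not pass. The dye component of *Ugt37E1* (-0.06) became 0.12 on odd-numbered spots and 0.023 with that array of pair 3 turned, and ran from -0.22 to 0.12 when a pair or an array was left out. That of *Ugt50B3* (-0.003) became 0.030 on even-numbered spots, 0.13 under the other reading and 0.048 with that array turned, and ran from -0.051 to 0.036. In the even-odd component, *Ugt50B3* (0.13) became -0.0034 under the other reading, *Ugt36F1* (-0.04) became 0.10 on odd-numbered spots, and *Ugt301D1* (-0.06) became 0.15 on even-numbered spots. When a pair or an array was left out, the even-odd component ran from -0.13 to 0.00050 for *Ugt301D1*, from -0.087 to 0.039 for *Ugt36F1*, from -0.075 to 0.20 for *Ugt37A1* and from -0.19 to 0.0094 for *Ugt37E1*. The cause of these changes was not tested.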
